A study of Homo sapiens with 6 samples.

Results

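ETS transcription factors share a DNA-binding domain that reads the core sequence GGAA, and several of them are end points of the ERK pathway. The 10 genes described here were taken by symbol from the count table of 28265 genes: the PEA3 group genes ETV1, ETV4 and ETV5, the ternary complex factors ELK1, ELK3 and ELK4, ETS1 and ETS2, the repressor ETV6, and the epithelial factor ELF3. All 10 had a row, and 9 had enough reads to be tested; ETS1 did not. The other 18 ETS family genes were used as the comparison set.

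The cells were Huh7, an established human hepatocellular carcinoma line. They had been transduced with lentiviral particles carrying either an expression vector for LHX2, a LIM-homeodomain transcription factor (group LHX2), or a control vector (group CTRL, whose cells the labels also call parental) and were incubated for 48 h. Each group held 3 libraries of polyadenylated RNA. The labels do not state the promoter of the vectors, the share of cells transduced, or whether the replicates were separate cultures, so the p-values reflect the variation among these libraries alone, part or all of which may be technical.

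ERK kinases phosphorylate ETS proteins directly. ELK1, ELK3 and ELK4 sit with serum response factor on the promoters of immediate early genes and switch them on when phosphorylated, while ETS1 and ETS2 gain coactivator binding. ETV1, ETV4 and ETV5 are regulated at a second level as well: their genes are repressed by Capicua (CIC), which ERK signalling inactivates, so their transcripts are widely used as readouts of pathway output. ELF3 belongs to the epithelium-specific ETS genes. RNA counts measure the transcripts and not the phosphorylation or activity of the proteins.

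Library totals ran from 30029313 to 39653681 counts. The LHX2 gene was read 1, 2 and 1 times in the control replicates and 2535, 2427 and 3126 times in those labelled LHX2. The hepatocyte markers ALB, AFP, APOA1, APOA2, TTR, SERPINA1, FGB, HNF4A, GPC3 and TF were all present, and summed to between 44100 and 45450 CPM (read counts scaled to a common library size with TMM factors) in control and 41600 to 44650 in LHX2 libraries. Most of that sum was AFP and ALB, with control means of 24740 and 12170 CPM. By the edgeR test used throughout, 6 of these 10 markers were called, beside 32.5% of all genes tested: APOA2 (-0.36 on the log2 scale), SERPINA1 (-0.30), HNF4A (-0.26) and TTR (-0.17) fell, and GPC3 (0.25) and TF (0.22) rose. Of 7 leukocyte markers 5 stayed under 1 CPM in every library, with CD3E and SPI1 at 0 counts, and the summed level (462.9 to 490.9 CPM in control, 595.9 to 661.0 with LHX2) was nearly all LYZ. Of 7 endothelial markers 6 stayed under 1 CPM, with CDH5, KDR, ERG and TEK at 0, and the sum was 3.75 to 4.28 CPM in control and 2.80 to 3.22 with LHX2. The fibroblast list summed to 17.7 to 19.8 CPM in control and 46.6 to 52.7 with LHX2, through COL1A2 and LUM. The other 4 of its 6 markers stayed under 1 CPM and were not tested. COL3A1 drew 9, 7 and 8 reads in control and 2, 2 and 4 with LHX2, and PDGFRB 6, 10 and 6, then 1, 1 and 2. COL1A1 drew 9, 8 and 4 reads in control and 8, 10 and 10 with LHX2. DCN drew 1 read, in control replicate 1. The part of the hepatocyte, leukocyte, endothelial and fibroblast markers in the results below was not tested.

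With LHX2, 1 ETS member rose, ETV1 (1.24-fold), and 1 fell, ELF3 (1.28-fold). The other 7 tested members did not pass the edgeR quasi-likelihood test at a Benjamini-Hochberg adjusted p under 0.05, among them ETV4 and ETV5. Over all 14533 genes tested 32.5% were called, 16.6% higher and 15.8% lower. The members, with 2 of 9 called, did not exceed that background. Their median log2 fold change was -0.01 and their median absolute change 0.05, beside 0.01 and 0.155 over all genes tested.

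**Figure D1:**
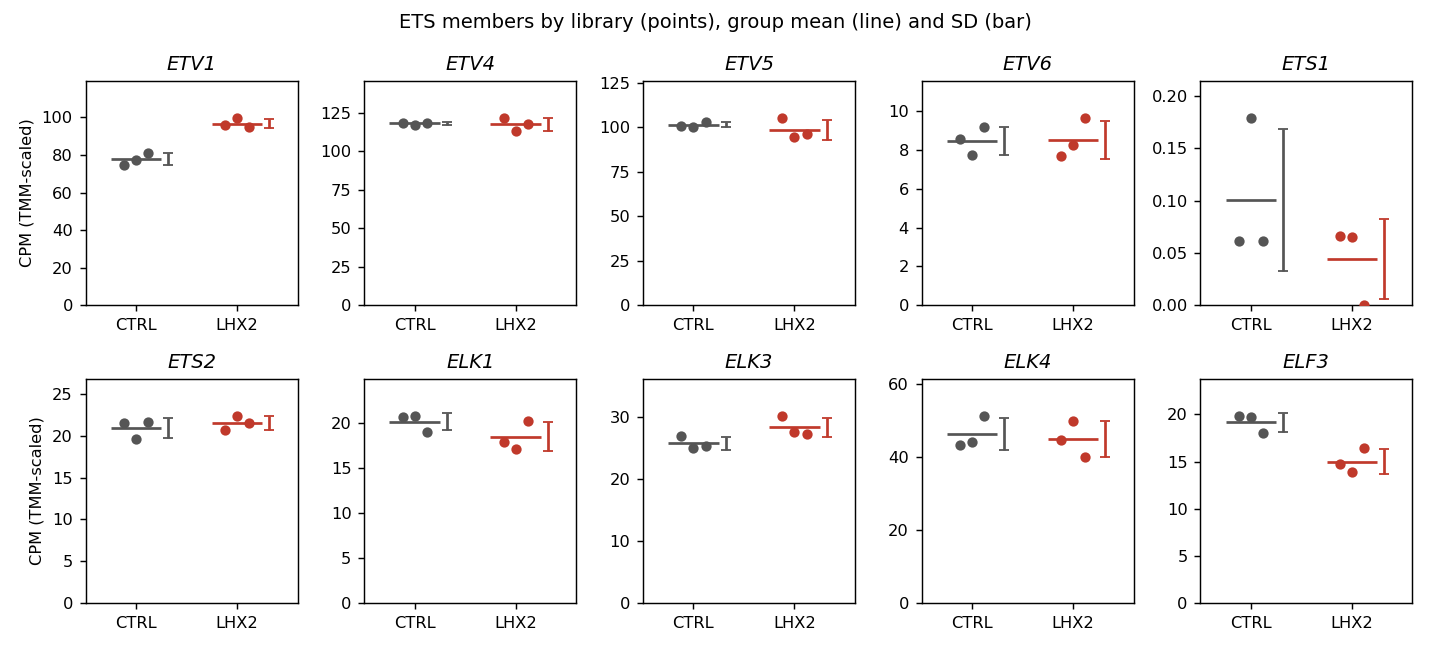
Level of each of the 10 members in CPM (linear axis from 0, own scale per panel) in the 3 control and 3 LHX2 libraries; points are libraries, lines group means and bars the SD (n = 3). The groups stand apart in ETV1, ELK3 and ELF3 and overlap in the other members.

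ETV1, on chromosome 7 from position 13891229 to 13991425 of GRCh38, is a PEA3 group activator. It had 74.7, 77.3 and 81.1 CPM in the control libraries and 96.1, 99.5 and 94.7 CPM with LHX2, here and below in the order of replicates 1 to 3. Every LHX2 library was above every control library. Group means were 77.7 ± 3.22 and 96.7 ± 2.46 CPM (SD, n = 3), so that ETV1 rose 1.24-fold. This was a log2 fold change of 0.32 ± 0.04 (SE, edgeR adjusted p = 5.6e-05). A change of this size or larger in either direction was fitted for 23.3% of all genes tested. These are libraries of whole cultures, so more transcript per cell and more cells that express the gene cannot be told apart.

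ETV4, on chromosome 17 from 43527846 to 43546340, had the highest level of the members per length of transcript. Its values were 118.7, 117.3 and 118.5 CPM in the control libraries and 121.4, 113.2 and 117.8 CPM with LHX2. The control values lay inside the range of the LHX2 values. The log2 fold change was -0.01 with a 95% interval of -0.09 to 0.08 (edgeR adjusted p = 0.89). For the reads counted as ETV4, the interval leaves out changes as large as that of ETV1.

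ETV5, on chromosome 3 from 186046314 to 186109089, had 101.0, 100.5 and 103.0 CPM in the control libraries and 105.1, 94.8 and 96.1 CPM with LHX2. LHX2 replicate 1 was the highest of all 6 libraries and the other LHX2 replicates the lowest. The log2 fold change was -0.04 (95% interval -0.14 to 0.05, edgeR adjusted p = 0.52). ETV4 overlaps the gene DHX8 and ETV5 an antisense gene in RefSeq, and the strand setting of the counting is not given in the sources used here. Reads from overlapping genes may therefore be included in both values, and their share was not tested. DHX8 itself had 4017, 5047 and 4260 reads in control and 3828, 3848 and 4143 with LHX2.

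The 3 PEA3 genes thus did not move as a block. The log2 ratio of ETV1 to ETV4 within a library was -0.67, -0.60 and -0.55 in the control replicates and -0.34, -0.19 and -0.32 in the LHX2 replicates. This is a difference of 0.33 with no overlap between the groups (exact permutation test over libraries, two-sided p = 0.10, the smallest that 3 against 3 libraries can give). The ratio of ETV1 to ETV5 differed by 0.36 (exact permutation p = 0.10). Both p-values remained 0.10 when adjusted over the 4 ratios tested. ETV1 was called and ETV4 and ETV5 were not, so these ratios mostly restate the rise of ETV1. Per length of transcript (CPM per kilobase of the longest GENCODE transcript), ETV1 made up 13.6% ± 0.450 of the PEA3 sum in control and 16.6% ± 0.826 with LHX2, ETV4 57.3% ± 0.507 and 55.8% ± 0.630, and ETV5 29.1% ± 0.0790 and 27.7% ± 0.705 (SD, n = 3).

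Promoter windows of 300 bases around annotated transcript starts, from RefSeq (GRCh38.p14), were found for 7 of the 10 members, 14 windows in all, 6 of them for ETV1; ETV4, ETV5 and ETS1 were not matched. Shown for ETV1, the member that rose, are the windows that held a motif other than the ETS core, each read 5′ to 3′ along the gene. In the first, on the minus strand at chr7:13989617-13989916, capitals mark the LIM-homeodomain core TAATTA, the kind of site that LHX2 proteins read. In the other, on the minus strand at chr7:13991376-13991675, capitals mark the octamer TGAATGGA, a form of the Capicua site.
ETV1 window with TAATTA: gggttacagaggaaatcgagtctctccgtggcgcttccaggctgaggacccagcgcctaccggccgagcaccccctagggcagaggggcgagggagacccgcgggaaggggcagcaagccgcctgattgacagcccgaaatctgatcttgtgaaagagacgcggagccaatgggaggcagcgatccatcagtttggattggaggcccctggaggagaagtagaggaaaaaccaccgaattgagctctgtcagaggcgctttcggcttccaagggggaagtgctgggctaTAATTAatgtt
ETV1 window with TGAATGGA: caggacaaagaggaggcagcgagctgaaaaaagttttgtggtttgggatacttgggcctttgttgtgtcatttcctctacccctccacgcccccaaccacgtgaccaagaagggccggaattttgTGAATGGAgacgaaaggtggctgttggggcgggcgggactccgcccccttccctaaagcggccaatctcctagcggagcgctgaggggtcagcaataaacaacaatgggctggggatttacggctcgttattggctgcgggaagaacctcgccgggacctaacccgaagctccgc

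TAATTA, searched on both strands, was in 1 of the 14 member windows and in 4.84% of all 35116 windows of this length. Among the 26 windows of the other ETS genes, 4 held it. TGAATGGA was in 1 of 14 and in 1.03% of all windows. TGAATGAA, another form of the octamer, was in none of the 14 and in 1.65% of all. Of the 26 other ETS windows, 0 held TGAATGGA and 1 held TGAATGAA. No further form of the octamer was searched. The windows of ETV1 partly overlap each other and are not independent. A match is a run of letters and does not show that a protein binds there.

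None of the ternary complex factors passed the test. ELK3, on chromosome 12 from 96194375 to 96269824, represses until it is phosphorylated, and had 26.95, 25.01 and 25.35 CPM in the control libraries and 30.1, 27.5 and 27.3 CPM with LHX2. The groups did not overlap in ELK3, nor in ETV1 and ELF3, 3 of 9 tested members; the share was 44.9% over all genes tested, and 22.9% in the direction of ELK3. The difference still did not pass the test, at 0.13 ± 0.06 on the log2 scale (SE, edgeR adjusted p = 0.12).

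ELK1, on chromosome X from 47635520 to 47650604, had 20.7, 20.8 and 19.1 CPM in control and 18.0, 17.2 and 20.3 CPM with LHX2, where replicate 3 reached the control range. Its log2 fold change was -0.13 (95% interval -0.29 to 0.04, edgeR adjusted p = 0.24). ELK4, on chromosome 1 from 205607943 to 205632011, was spread widely within both groups, with 43.5, 44.3 and 51.3 CPM in control and 44.8, 49.9 and 40.1 CPM with LHX2. The groups overlapped throughout (-0.05, 95% interval -0.21 to 0.12, adjusted p = 0.69). Summed, the ternary complex factors were at 92.4 ± 2.98 CPM in control and 91.8 ± 3.61 CPM with LHX2 (SD, n = 3). The ETS core GGAA was in all 14 member windows and in 95.5% of all windows. The longer ETS form CCGGAAGT, which contains that core, was in the ELK4 window alone among the members and in 4.14% of all windows. The CArG box, the site of serum response factor, was in none of the 14 member windows and in 1.29% of all, and the AP-1 site TGANTCA in none and in 7.71%.

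ETS1 and ETS2 encode close relatives with very different transcript levels in these cells. ETS1, on chromosome 11 from 128458765 to 128587558, drew only 2, 7 and 2 reads in control and 2, 2 and 0 with LHX2. Summed over libraries and scaled by the totals, that is 0.105 CPM (exact Poisson 95% interval 0.0522 to 0.187) in control and 0.0419 CPM (0.0114 to 0.107) with LHX2. The intervals, which cover counting error only, overlap. A difference was not tested at these counts, and 7 of the control reads came from replicate 2. ETS2, on chromosome 21 from 38805183 to 38824955, had 21.5, 19.6 and 21.7 CPM in control and 20.7, 22.4 and 21.5 CPM with LHX2, with the groups interleaved (0.04, 95% interval -0.10 to 0.19, edgeR adjusted p = 0.68).

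ETV6, a repressor of the TEL group on chromosome 12 from 11649674 to 11895377, had the lowest level of the tested members per length of transcript. It had 8.54, 7.73 and 9.18 CPM in control and 7.69, 8.24 and 9.63 CPM with LHX2. The LHX2 libraries held both the lowest and the highest value. Its log2 fold change of 0.01 had the widest 95% interval of the tested members, -0.21 to 0.24.

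ELF3, on chromosome 1 from 202010587 to 202017183, drives differentiation genes in epithelia. It had 19.8, 19.7 and 18.0 CPM in the control libraries and 14.7, 13.9 and 16.4 CPM with LHX2. Every LHX2 library was below every control library, as for 22.1% of all tested genes. ELF3 fell 1.28-fold, with group means of 19.2 ± 1.01 and 14.99 ± 1.30 CPM (SD, n = 3; log2 fold change -0.35 ± 0.08, SE; edgeR adjusted p = 0.0033). A change at least as large was fitted for 19.8% of genes tested. Its promoter window, shown because ELF3 is the member that fell, lies on the plus strand at chr1:202010337-202010636; capitals mark both copies of the ETS core (GGAA, or TTCC on this strand).
ELF3 window: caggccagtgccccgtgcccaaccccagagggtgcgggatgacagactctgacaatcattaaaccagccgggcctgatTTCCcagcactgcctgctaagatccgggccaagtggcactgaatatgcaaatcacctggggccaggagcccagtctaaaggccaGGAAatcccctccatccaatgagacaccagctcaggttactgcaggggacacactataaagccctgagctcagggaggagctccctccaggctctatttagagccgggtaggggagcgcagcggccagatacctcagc

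**Figure D2:**
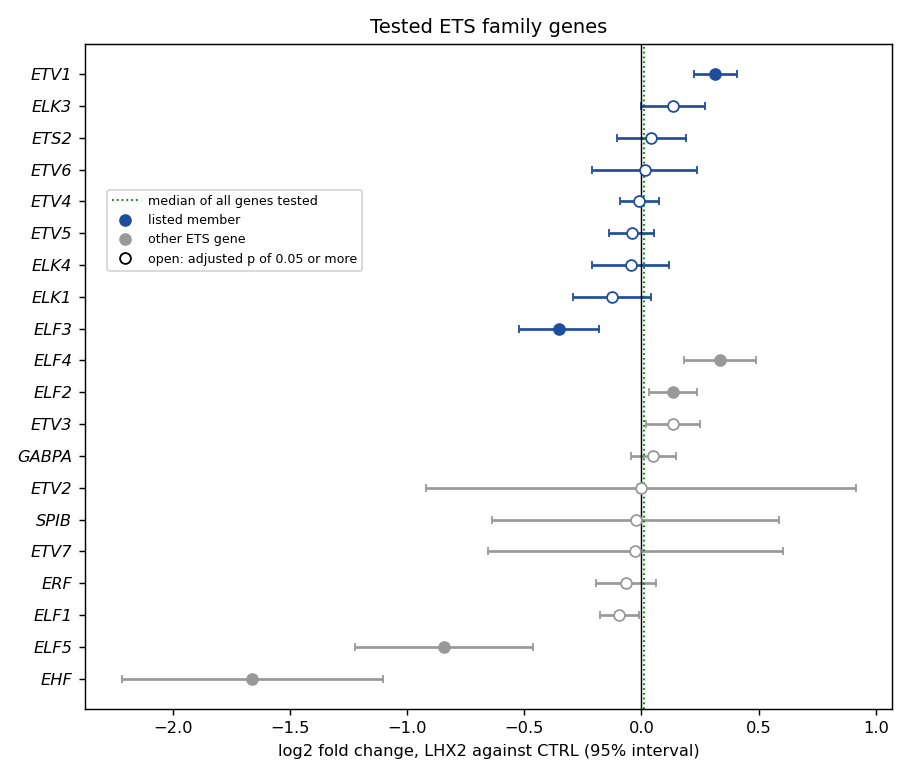
Log2 fold change (LHX2 against CTRL, with 95% interval from the edgeR fit) of the 20 tested ETS family genes, members in blue and other family genes in grey; filled points passed an adjusted p under 0.05. ETV1 and ELF3 are the filled members, and EHF and ELF5 lie furthest to the left.

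The closest relatives of ELF3, the epithelium-specific genes ELF5 and EHF, were lower with LHX2 too. ELF5, known from mammary and placental epithelium, was covered by 75, 81 and 63 reads in control and by 33, 38 and 42 with LHX2, and fell 1.79-fold (log2 fold change -0.84 ± 0.18, SE; edgeR adjusted p = 0.0020). EHF was covered by 51, 47 and 39 reads in control and 11, 13 and 16 with LHX2, and fell 3.16-fold (-1.66 ± 0.26, adjusted p = 1.8e-04). Per length both were less abundant than ELF3 in control, with means of 0.859 and 0.420 against 3.84 CPM per kilobase of transcript. They are neighbours on chromosome 11, ELF5 from 34478791 to 34513794 and EHF from 34621093 to 34663288, with no protein-coding gene between them in RefSeq. The sum of ELF3, ELF5 and EHF went from 22.6 ± 1.30 to 16.6 ± 1.29 CPM. This grouping of 3 genes was made after their values were seen.

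**Figure D3:**
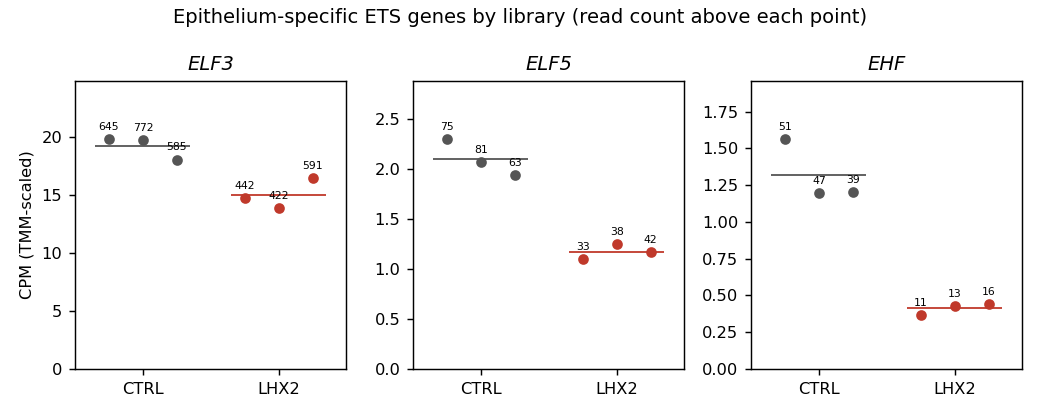
CPM (linear axis from 0, own scale per panel) of ELF3, ELF5 and EHF in each library, with the read count written above each point and lines for group means. In each panel all 3 LHX2 libraries lie below all 3 control libraries, and EHF rests on 11 to 51 counts.

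In the rest of the family 11 of 18 genes were tested: 2 rose, 2 fell (ELF5 and EHF) and 7 did not pass, with a median log2 fold change of -0.02. That is 4 of 11 called, close to the 32.5% over all genes tested. ELF4 had means of 14.2 ± 0.628 and 18.0 ± 0.689 CPM (SD, n = 3) and rose 1.26-fold (edgeR adjusted p = 0.0024). ELF2 was called at 0.14 on the log2 scale (adjusted p = 0.044), but did not pass when any of the control libraries or LHX2 replicate 1 or 2 was left out (0.11 to 0.15). The repressors ERF (-0.07) and ETV3 (0.14), which compete for ETS sites and are themselves ERK substrates or their relatives, did not pass. ERF passed at -0.16 without LHX2 replicate 1, and ETV3 at 0.18 without control replicate 3 and at 0.16 with library totals alone in place of TMM factors. GABPA (0.05) and ELF1 (-0.09), both broadly expressed, did not pass either, nor did ETV2, ETV7 and SPIB, each under 1 CPM in the means of both groups.

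Lineage-restricted family genes were at or near 0. ERG, FEV, ETV3L, SPI1 and SPIC had 0 counts in all libraries, which allows up to 0.0285 CPM in the summed control and 0.0314 CPM in the summed LHX2 libraries. FLI1 had 1 count in all, in LHX2 replicate 3. SPDEF drew 0 reads in each control library and 2, 1 and 2 with LHX2, too few to be tested.

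Levels of different ETS genes were ranked per length, as CPM per kilobase of the longest GENCODE transcript. That may not be the isoform these cells use. The sums in CPM given above, for the markers, the ternary complex factors and the epithelium-specific genes, were not scaled by length. In control libraries ETV4 led the members at 48.7 ± 0.326, followed by ETV5 at 24.7 ± 0.329 and ETV1 at 11.5 ± 0.477 CPM per kilobase (SD, n = 3). ELK1 (7.50 ± 0.365), ELK3 (6.13 ± 0.247), ETS2 (5.32 ± 0.292) and ELK4 (4.53 ± 0.420) formed a close middle group, in which ETS2 and ELK4 overlapped between libraries. ELF3 (3.84 ± 0.202) and ETV6 (1.42 ± 0.121) followed, and ETS1 was last at 0.0196. The order by mean was the same with LHX2, where ELK1 (6.87 ± 0.602) and ELK3 (6.73 ± 0.379) overlapped.

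The make-up of the family's transcript pool moved little on this scale. The 10 members took 56.6% ± 0.430 of the summed length-scaled level of all 28 family genes in control and 56.9% ± 0.391 with LHX2 (SD, n = 3), and the PEA3 genes alone 42.3% ± 0.314 and 43.0% ± 0.189. The share of ETV1 was 5.74% ± 0.220 in control and 7.13% ± 0.324 with LHX2, and that of ELF3 1.91% ± 0.107 and 1.49% ± 0.136. Among non-members ERF took the largest share, 14.5% ± 0.318 in control.

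**Figure D4:**
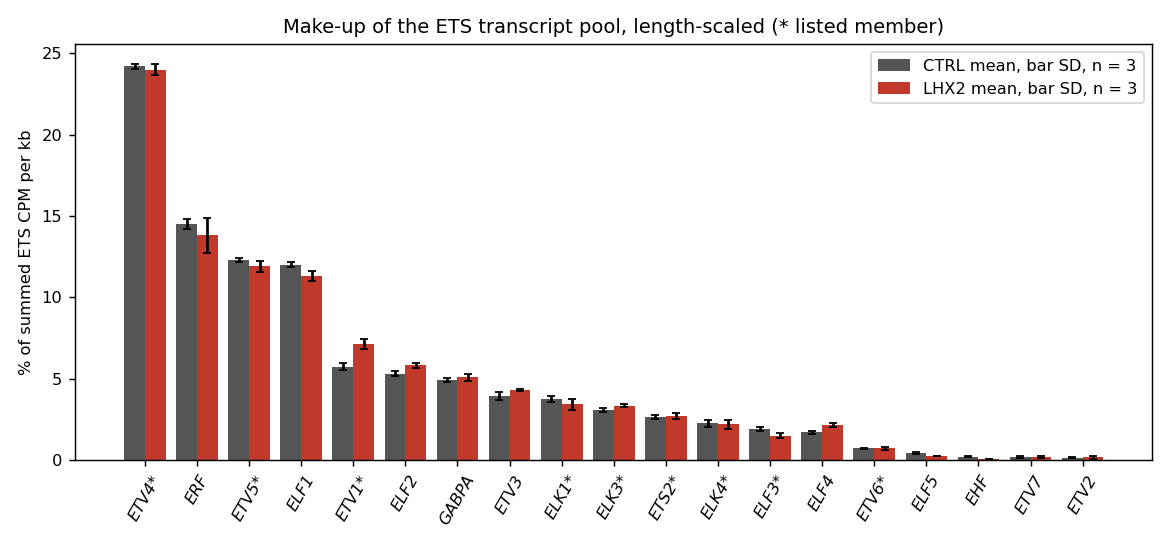
Share of each ETS gene in the summed CPM per kilobase of the family (percent, linear axis from 0) for genes with at least 0.1% in control; bars are means and error bars the SD (n = 3). ETV4 holds about 24% in both groups, and ETV1 goes from 5.74% to 7.13%.

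ERK output genes were set beside the members. They are the genes of a published MAPK activity score, of which ETV4 and ETV5 are also part, here without that pair. Of the 7 tested, 4 rose and 3 did not pass, beside 16.6% called higher over all genes tested; their median was 0.34 and that of all genes 0.01. Its ERK phosphatase gene DUSP6 had 132.4, 133.4 and 129.5 CPM in control and 239.4, 235.5 and 242.3 CPM with LHX2, a log2 fold change of 0.86 (95% interval 0.78 to 0.94, edgeR adjusted p = 2.6e-10). DUSP4 (0.76), PHLDA1 (0.62) and the cyclin D1 gene CCND1 (0.34) were the others that rose, and SPRY2, SPRY4 and EPHA2 did not pass. Without LHX2 replicate 2, or with library totals alone in place of TMM factors, 5 rose. Within libraries the log2 ratio of DUSP6 to ETV4 was 0.16, 0.19 and 0.13 in control and 0.98, 1.06 and 1.04 with LHX2, a difference of 0.87. The ratio to ETV5 differed by 0.90. Neither ratio overlapped between the groups (exact permutation p = 0.10 each, the smallest possible). DUSP6 was the most changed gene of the list, so both ratios mostly restate its rise and do not test ETV4 or ETV5. The 95% intervals of the DUSP6, DUSP4, PHLDA1 and CCND1 fold changes did not overlap those of ETV4 and ETV5, genes of the same score. Those of SPRY2 (-0.08, -0.20 to 0.03), EPHA2 (0.08, -0.06 to 0.21) and SPRY4 (0.19, 0.03 to 0.35) did.

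Genes that act on ETS factors were called about as often as genes at large. Of 19 tested cofactors, repressors and degraders 5 rose, 1 fell and 13 did not pass, so 6 of 19 were called beside 32.5% of all genes tested, and the median was 0.08. With correction for transcript length and GC content 2 were higher and 2 lower. CIC, the repressor of the PEA3 genes, had 29.6, 26.9 and 24.6 CPM in control and 30.6, 33.3 and 36.5 CPM with LHX2, 1.24-fold higher (log2 fold change 0.31 ± 0.08, SE; edgeR adjusted p = 0.0061). The correction for length and GC content ended that call (0.13, adjusted p = 0.075). MRTFB, a cofactor of serum response factor, rose by 0.43 and TRIB1, an adaptor of the COP1 ubiquitin ligase, by 0.36. The acetyltransferase genes CREBBP (0.26) and EP300 (0.22), coactivators of ETS proteins, were called higher, and neither passed with the same correction (0.05 each). FBXW7, a ubiquitin ligase subunit, fell by 0.21, but not when any control library or LHX2 replicate 1 or 2 was left out (-0.23 to -0.18). SRF (0.02) did not pass. COP1, which marks ETV1, ETV4 and ETV5 proteins for degradation, did not pass at -0.14, although it did at -0.17 without LHX2 replicate 1.

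Of 13 tested kinases and scaffolds of the RAF-MEK-ERK cascade 2 rose, 2 fell and 9 did not pass, with a median of -0.02. The 4 of 13 called are again near the background of 32.5%. RPS6KA3, an ERK-activated kinase, had means of 1454 ± 40.4 CPM in control and 1095 ± 25.1 CPM with LHX2 (SD, n = 3) and fell 1.33-fold (edgeR adjusted p = 2.2e-06). The other called members were close to the threshold. RPS6KA1 (0.20) did not pass when any library but LHX2 replicate 2 was left out: it was at 0.11 without LHX2 replicate 3 and at 0.19 to 0.22 in the other cases. BRAF (0.15) did not pass when replicate 1 or 2 of either group was left out (0.10 to 0.16), nor with the correction for length and GC content (0.07, edgeR adjusted p = 0.24). The call of MAP2K1 (-0.13) was lost on leaving out LHX2 replicate 2 or either of control replicates 1 and 2 (-0.14 to -0.10). MAPK3, which encodes an ERK kinase, had a log2 fold change of 0.03 and did not pass.

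Immediate early genes on which the ELK proteins and SRF act were mostly not called: 1 of 10 tested rose, MCL1, an anti-apoptotic BCL2 relative (0.28, edgeR adjusted p = 6.4e-05), and 9 did not pass, with a median of 0.03, beside 16.6% higher over all genes. FOS (0.10 ± 0.27, SE) was under 1 CPM in both group means. EGR1 (0.42 ± 0.20) did not pass, and did at 0.60 without LHX2 replicate 2. IER2 was called lower without control replicate 3 or without LHX2 replicate 3; it is named because of that count, after its values were seen.

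Among 12 invasion genes with described ETS sites 6 were tested, and 1 rose, 1 fell and 4 did not pass, with a median of -0.01; 2 of 6 called is close to the 32.5% over all genes tested. The urokinase gene PLAU had 8.67, 8.70 and 7.73 CPM in control and 1.63, 1.84 and 2.50 CPM with LHX2, 4.16-fold lower (edgeR adjusted p = 4.8e-08). The membrane protease gene MMP14 rose 1.251-fold (adjusted p = 3.3e-04). TIMP1 (0.47, edgeR adjusted p = 0.055) did not pass. It was called higher as well without LHX2 replicate 3, and is named for that reason after its values were seen.

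**Figure D5:**
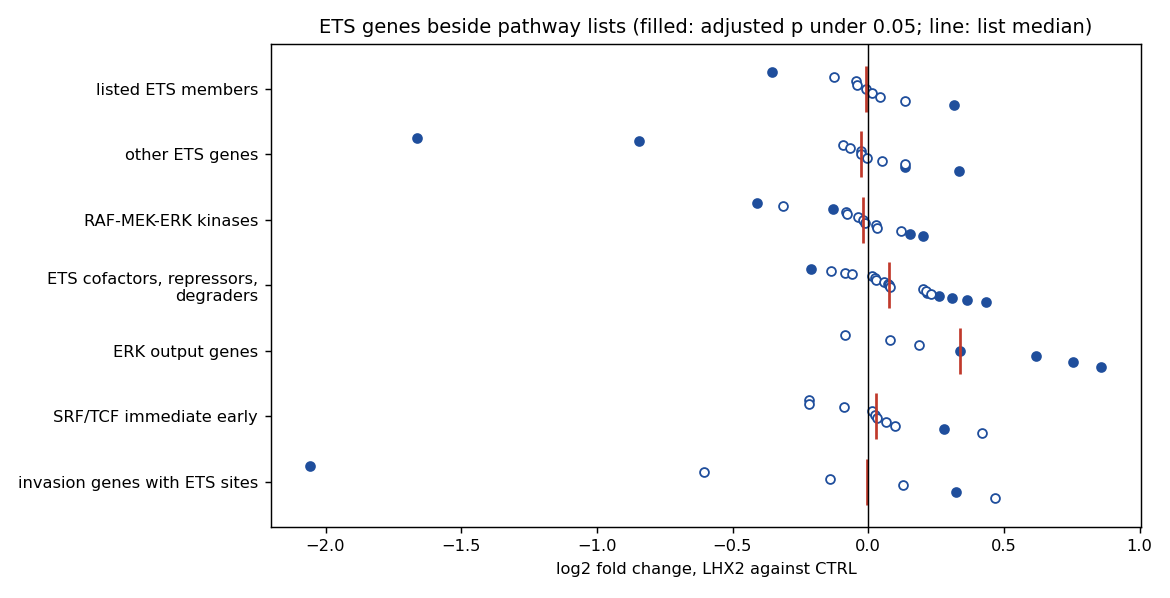
Log2 fold change of every tested gene in the listed ETS members, the other ETS genes and 5 pathway lists; filled points passed an adjusted p under 0.05 and red lines are list medians. Apart from ETV1 (0.32) and ELF3 (-0.35), the members lie between -0.13 and 0.13. Of the 7 ERK output genes 4 were called higher, at 0.34 or more, beside 16.6% of all genes tested.

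The genes whose pattern over the 6 libraries was nearest to ETV1, by the root mean square difference of mean-centred log2 CPM among 10382 genes of at least 5 CPM, were PHC1 (0.01) and SEMA3A (0.02). Those nearest to ELF3 were IPO4 and CYC1 (0.02 each). With 6 libraries in 2 groups this measure is set mostly by the difference between the groups.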

How the data were processed

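Each library came with whole-number read counts for 28265 genes, deposited by the authors without normalization. Per the submitters' processing notes, the tools were featureCounts 2.0.0, TopHat2 2.1.1, Bowtie2 2.3.5.1, SAMtools 1.9, bcl2fastq 2.20 and FastQC, with GRCh38/hg38; which annotation and strand setting were used is not given in the sources used here. A control column has a name in another form; its final digit made it control replicate 1. Library totals were 30029313 to 39653681; the precision of a fold change rests on the reads of the gene and on the spread between libraries.

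Low genes were dropped by filterByExpr (min.prop 0.7, min.count 10, min.total.count 15), leaving 14533. TMM scaling and the edgeR 4.0.16 quasi-likelihood F-test (R 4.3.3) followed, with group alone in the model and Benjamini-Hochberg adjustment over all of them at 0.05. The SE was derived from the F statistic. Log2 CPM used a prior count of 2. The alternatives covered scaling (RLE, upper quartile, totals only), filters (none, or 1 CPM in 3 libraries), blocking on replicate number, leaving out each library, DESeq2 1.42.0, limma-voom (limma 3.58.1), and correction for length and GC by a loess surface (span 0.3). The fit and this correction were tried on simulated counts with the same dispersion for every gene, and the outcome is not given here. Lengths were those of the longest GENCODE release 29 transcript; positions and promoters came from RefSeq (GRCh38.p14).

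Members and lists were chosen with earlier results of these data known. Named were all family genes, up to 4 called genes of each list with the largest changes, SRF, CIC, COP1, MAPK3, DUSP6, FOS and EGR1, and the 2 nearest genes of each called member; 1 gene of this rule is not reported here. EP300, FBXW7, SPRY2, SPRY4, EPHA2, IER2 and TIMP1 were named after their values were seen.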

Additional observations from a re-analysis of the deposited data

How the results depend on the processing

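The calls of ETV1 (0.28 to 0.35) and ELF3 (-0.43 to -0.30) and the lack of a call for the other 7 tested members held under all 15 alternatives, as did those of ELF5, EHF and ELF4. Same-numbered libraries did not deviate together (correlations -0.06, -0.07 and -0.20), so the numbers were not taken as pairs; with the replicate block 3768 genes were called in place of 4716, and each other alternative gave 3549 to 5096. The share of higher genes among those called was 59.8% with library totals alone and 44.2% with the length and GC trend removed. Among the other ETS genes 1 was called higher with RLE factors, no filter, the replicate block, DESeq2 or limma-voom, and 1 to 2 with a library left out. In the RAF-MEK-ERK list 0 were higher with RLE factors, the replicate block or DESeq2 (2 at an unadjusted p under 0.05 in each), 1 with limma-voom or the trend removed, and 0 to 1 with a library left out (1 to 2 unadjusted). There 1 was lower with library totals, the replicate block or DESeq2, 4 with the trend removed and 1 to 2 with a library left out. Of cofactors, repressors and degraders 2 were higher and 2 lower with the trend removed, 0 lower with library totals (1 unadjusted, edgeR) and 0 to 1 lower with a library left out. Of immediate early targets 1 was lower without a filter or with the trend removed, 0 to 1 were lower and 1 to 2 higher with a library left out. Of invasion genes 2 were higher with library totals, the 1 CPM filter or the trend removed, and 1 to 2 with a library left out.

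Signs turned only in genes that did not pass. With library totals alone the values were 0.0194 for ETV4, 0.0262 for ETV2, 0.0026 for ETV7 and 0.0040 for SPIB, and DESeq2 gave 0.0053 for ETV2. With the trend removed they were -0.0310 for ETV6, -0.0188 for MAPK3 and -0.0661 for SRF. With each library left out in turn the ranges that crossed 0 were -0.0382 to 0.0173 for ETV4, -0.0877 to 0.0764 for ETV6, -0.0048 to 0.0688 for ETS2, -0.1277 to 0.0313 for ELK4 and -0.4603 to 0.3693 for ETV2. They were -0.2167 to 0.1605 for ETV7, -0.1066 to 0.0458 for SPIB, -0.0155 to 0.1047 for MAPK3, -0.0055 to 0.0587 for SRF and -0.0669 to 0.2777 for FOS. The cause was not tested. Depth limits ETS1 and the family genes under 1 CPM.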
